A study of Mus musculus with 2 samples.

Results

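The mir-17-92 and mir-106b-25 clusters are a pair of related groups of microRNA hairpins, each cut from a single host transcript. They were followed here through 9 hairpin genes chosen by name, of 2202 microRNA genes listed: Mir17, Mir18, Mir19a, Mir20a, Mir19b-1 and Mir92-1 on chromosome 14, and Mir106b, Mir93 and Mir25 inside Mcm7 on chromosome 5. MicroRNA sequencing had been done on total RNA from the left cerebral cortex of female mice aged 10 days. The animals were B6CASTF1/J, an F1 cross between C57BL/6J, a standard laboratory strain, and CAST/EiJ, which derives from wild mice, and no treatment or transgene is named in the labels. There is 1 group with 2 biological replicates, called animal 1 and animal 2, which the labels number as different females under the same donor entry. No conditions are contrasted, so the data describe the level of each hairpin and the difference between these animals.

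MicroRNAs are short RNAs that repress messenger RNAs, and bases 2 to 8 of the mature strand, the seed, largely decide which messengers are bound. The mir-17-92 cluster is known as a Myc-driven promoter of proliferation and survival, active in embryonic neural progenitors, and its microRNAs repress genes such as Cdkn1a, an inhibitor of the cell cycle. Its paralog mir-106b-25 lies in the gene of a subunit of the replicative DNA helicase and is thereby linked to cycling cells. Whole tissue was sequenced, so fewer cells of a type and less RNA per cell cannot be told apart.

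The 9 hairpins fall into 4 seed groups, and the mature strands below are shown so that the values of hairpins with and without a shared seed can be set side by side. Each is the strand for which the family is known. All 9 hairpins were matched by symbol in RefSeq (GRCm38.p6), the seed is in capitals, and positions are counted from 1 at the 5′ end.
miR-17-5p: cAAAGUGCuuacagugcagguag
miR-20a-5p: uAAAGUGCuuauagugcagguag
miR-93-5p: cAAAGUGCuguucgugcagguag
miR-106b-5p: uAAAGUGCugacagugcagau
miR-18a-5p: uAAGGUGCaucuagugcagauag
miR-19a-3p: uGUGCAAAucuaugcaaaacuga
miR-19b-3p: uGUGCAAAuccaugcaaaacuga
miR-92a-3p: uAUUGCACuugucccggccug
miR-25-3p: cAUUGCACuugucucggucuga
Mir17, Mir20a, Mir93 and Mir106b share the seed AAAGUGC although they come from both clusters. From miR-17-5p, miR-20a-5p differs by C1U and C12U, miR-106b-5p over its 21 bases by C1U, U10G and G20A, and miR-93-5p by U10G, A11U, C12U and A13C. Mir18 has AAGGUGC, in which A4G sets it apart from miR-17-5p. Mir19a and Mir19b-1 share GUGCAAA and differ by U11C alone. Mir92-1 and Mir25, the last hairpins of their clusters, share AUUGCAC, and miR-25-3p differs from miR-92a-3p by U1C, C14U and C18U over 21 bases.

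The hairpins of each cluster lie close together on 1 transcript. The 6 hairpins of mir-17-92 fill chr14:115043671-115044506 (mm10, plus strand), a stretch of 836 bases, within an exon of the annotated transcript of Mir17hg, a long noncoding RNA gene. Gaps between neighbours run from 35 to 96 bases. The 3 hairpins of mir-106b-25 fill chr5:138165321-138165818 (minus strand), 498 bases, in introns of Mcm7. Mir93 and Mir25 also lie within an exon of 1 further Mcm7 transcript. In the predicted fold of the hairpins alone, Mir93 had the lowest free energy of the 9, -46.3 kcal/mol, and Mir18 the highest, -29.2 kcal/mol.

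In animal 1, 3806078 reads fell on microRNA genes, and in animal 2 the number was 2602935. Levels are given as CPM, reads of a hairpin scaled to a common total of these reads, so 1 read is 0.263 CPM in animal 1 and 0.384 CPM in animal 2. A microRNA read covers a whole mature strand, so levels were not divided by hairpin length, and reads of both strands of a hairpin are summed. Reads mapped to several positions, 42.7% and 40.4% of all reads in animals 1 and 2, stand apart from the genes. Of the markers for the tissue, 7 of 10 neuronal genes reached 10 CPM in both animals, and the list held 4.10% and 4.17% of counted reads. Mir124a-1, Mir124a-2 and Mir124a-3, which define neurons, had only 24 and 10 reads together in animals 1 and 2, and they are copies whose reads can fit several positions.

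Together the 9 hairpins held 0.793% of counted reads in animal 1 (exact Clopper-Pearson 95% interval 0.784 to 0.802) and 0.864% in animal 2 (0.853 to 0.875). These intervals cover counting error only. The mir-17-92 cluster took 0.451% in animal 1 and 0.498% in animal 2, with a mean of 0.475% ± 0.0337 (SD, n = 2). The mir-106b-25 cluster took 0.342% and 0.365%, a mean of 0.354% ± 0.0166 (SD, n = 2). In counted reads, mir-17-92 had 1.32 times those of mir-106b-25 in animal 1 and 1.36 times in animal 2. Mir92-1 and Mir19b-1 may be counted too low, since their mature strands fit a second copy. Without them mir-17-92 had 12623 and 11282 reads in animals 1 and 2, against 13014 and 9512 for mir-106b-25. The order of the clusters thus turned in animal 1 and depends on these uncertain counts.

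Of the 9 hairpins, 7 reached 10 CPM in both animals, 4 of 6 in mir-17-92 and 3 of 3 in mir-106b-25, while 13.9% of all listed genes did. Mir17, the first hairpin of its cluster, had 9396 reads in animal 1 and 8709 in animal 2. These are 2469 and 3346 CPM, a mean of 2907 ± 620.2 (SD, n = 2), which ranks 61 of 2202 genes. Mir93, the middle hairpin of the Mcm7 cluster, had 9272 and 8459 reads, or 2436 and 3250 CPM, a mean of 2843 ± 575.4 (SD, n = 2) and rank 63. The gap between Mir17 and Mir93, 32.6 CPM in animal 1 and 96.0 in animal 2, was smaller than the spread of either between the animals, and both were higher in animal 2.

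The next 3 were lower than Mir17 and Mir93 in both animals. Mir92-1, the last hairpin of mir-17-92, had 4523 and 1686 reads, or 1188 and 648 CPM in animals 1 and 2. Mir20a, which differs from Mir17 by a pair of bases in its mature 5p strand, had 2133 and 1844 reads, or 560.4 and 708 CPM. Mir106b, the first hairpin in Mcm7, had 3362 and 898 reads, or 883 and 345 CPM. The order of these 3 changed between the animals: Mir92-1, Mir106b and Mir20a in animal 1, but Mir20a, Mir92-1 and Mir106b in animal 2.

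Mir18 and Mir25 were lower again. Mir18 had 1090 and 729 reads, or 286 and 280 CPM, and ranked 165. Mir25 had 380 and 155 reads, or 99.8 and 59.5 CPM, and ranked 219. In both animals Mir18 stood above Mir25 and below those 3.

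The miR-19 hairpins, known from mouse lymphoma as the main growth-promoting part of the cluster, were almost uncounted. Mir19b-1 had 12 and 7 reads, or 3.15 and 2.69 CPM. Mir19a had 4 reads in animal 1, or 1.05 CPM, and 0 in animal 2, which allows up to 3 reads or 1.15 CPM. Both were below 10 CPM in both animals, although they lie between Mir18 and Mir92-1 on the same transcript.

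**Figure D1:**
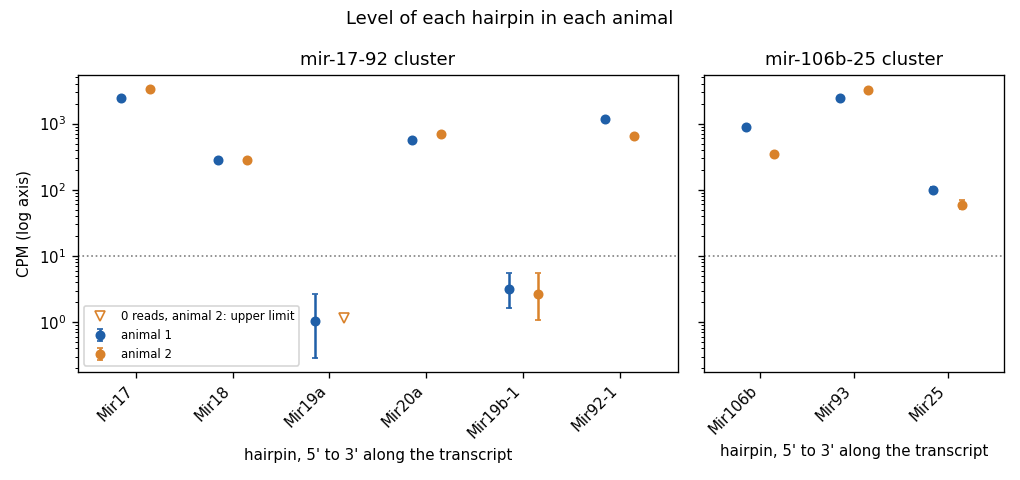
CPM of each hairpin (log axis) in transcript order, with animal 1 in blue and animal 2 in orange; bars are exact 95% intervals for counting error, the triangle is the upper limit of 3 reads, and the dotted line is 10 CPM. Mir17 and Mir93 lie highest in both animals, while Mir19a and Mir19b-1 lie below the dotted line.

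For a pair of hairpins the counts depend on sequence shared with the X chromosome, where a paralog of the cluster lies (Mir106a, Mir18b, Mir20b, Mir19b-2, Mir92-2 and Mir363, from 52741693 to 52742567, mm10). The hairpins below are shown with the longest run shared by each pair in capitals (RefSeq, GRCm38.p6).
Mir92-1, chr14:115044427-115044506, plus strand: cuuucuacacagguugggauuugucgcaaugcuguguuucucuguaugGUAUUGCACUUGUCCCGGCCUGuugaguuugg
Mir92-2, chrX:52741838-52741928, minus strand: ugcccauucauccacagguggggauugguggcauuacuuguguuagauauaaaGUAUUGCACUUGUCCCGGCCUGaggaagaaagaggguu
Mir19b-1, chr14:115044305-115044391, plus strand: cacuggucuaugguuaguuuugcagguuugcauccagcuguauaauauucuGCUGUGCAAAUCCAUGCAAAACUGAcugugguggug
Mir19b-2, chrX:52741983-52742066, minus strand: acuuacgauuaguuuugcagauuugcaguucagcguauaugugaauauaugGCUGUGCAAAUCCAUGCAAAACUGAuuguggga
The run is 22 bases for the miR-92a hairpins and holds all 21 bases of the mature strand. It is 25 bases for the miR-19b hairpins and holds all 23. A read lying within the run cannot be placed on either copy, so the levels of Mir92-1 and Mir19b-1 are uncertain and may be too low. For the other 7 members the longest run shared with any other listed hairpin was at most 17 bases. For Mir19a it was 13 bases, and no other listed hairpin holds its whole mature strand. These runs are exact matches among listed hairpins. Fits elsewhere in the genome or with a mismatch were not examined.

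The paralog cluster on the X chromosome was low throughout, with 191 and 123 reads in all, or 50.2 and 47.3 CPM in animals 1 and 2. Only Mir92-2 reached 10 CPM in both animals, at 22.1 and 18.8 CPM, from 84 and 49 reads. Mir106a, which has the seed of Mir17, had 32 and 33 reads, or 8.41 and 12.7 CPM, and Mir17 had 294 and 264 times its reads. Mir20b had 22 and 18 reads, Mir363 51 and 23, Mir19b-2 2 and 0, and Mir18b 0 in both. Among the 3 related clusters, counted reads therefore came almost wholly from chromosomes 14 and 5, and reads that fit several positions are not part of this comparison.

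Hairpin genes were next summed by the seed of the strand shown above. Reads of both strands are counted, so not every read need carry that seed. The AAAGUGC members of both clusters held 0.635% of counted reads in animal 1 and 0.765% in animal 2, with a mean of 0.700% ± 0.0920 (SD, n = 2). The sum over all 7 listed genes with that seed was nearly the same, 0.636% and 0.767%. The AUUGCAC members, Mir92-1 and Mir25, held 0.129% and 0.0707%. Over all 7 genes with this seed the share was 0.577% and 0.298%, because Mir92b, a relative on chromosome 3, carried most of it. Its mature strand is shown since it led this seed group in counted reads.
miR-92b-3p: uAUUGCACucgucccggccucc
From miR-92a-3p it differs by U10C and G21C over 21 bases. Mir92b had 16774 and 5739 reads, or 4407 and 2205 CPM, which was 3.71 and 3.40 times the reads of Mir92-1. The count of Mir92-1 may be too low because miR-92a-3p fits a second copy. The lead of Mir92b and the share of the AUUGCAC members therefore need not hold for the mature strands. Mir32 had 155 and 108 reads, and Mir367, known from pluripotent cells, had 0 in both. The AAGGUGC group rested on Mir18 alone, at 0.0286% and 0.0280%, and the GUGCAAA members held 0.000420% and 0.000269%.

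Libraries were first scaled by TMM, with 1 factor for each library, which is meant to lessen the effect of differences in library composition. The animals were then compared gene by gene with an exact conditional binomial test on reads. The p-values were adjusted over all 531 genes with at least 10 reads in both libraries together. The test sets the reads of 1 library against those of the other, with counting noise as its only error, and says nothing of conditions. Of all genes tested 51.6% passed at 0.05, 26.9% higher in animal 1 and 24.7% higher in animal 2. Among genes with at least 100 reads in both libraries the share that passed was 83.2%, so passing says little about a well-read gene. Of the 9 hairpins 8 could be tested and 7 passed, 3 higher in animal 1 and 4 higher in animal 2. The call of Mir18 was lost in 3 of 5 alternatives, which left 6, 3 in each direction. The 8 tested hairpins had a median absolute log2 ratio of 0.58, against 0.51 over all genes tested. Over genes with at least 100 reads in both libraries it was 0.41.

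Counted reads of hairpins of the same transcript went in opposite directions. In mir-17-92 this rests on Mir92-1 alone, whose count is uncertain because its mature strand fits a second copy. In mir-17-92, Mir17 was 1.56-fold higher in animal 2 (log2 ratio of animal 1 over animal 2 -0.64, 95% interval -0.68 to -0.60; adjusted p = 1.01e-192, exact binomial test). Mir20a was also higher there, by 1.46-fold (log2 ratio -0.54, -0.63 to -0.45). Mir92-1, a short way downstream, was 1.59-fold higher in animal 1 (0.67, 0.59 to 0.75; adjusted p = 6.62e-63, exact binomial test). Mir18 had a log2 ratio of -0.17 (-0.31 to -0.034; adjusted p = 0.0294, exact binomial test), which turned to 0.032 with library totals only (adjusted p = 0.757, exact binomial test). Its adjusted p was 0.198 with genes of at least 1 read and 0.0604 with genes of at least 100 reads over both libraries (exact binomial test). Mir19b-1, with 19 reads in all, did not pass, and Mir19a had too few reads to test.

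The Mcm7 cluster showed the same split. Mir93 was 1.54-fold higher in animal 2 (log2 ratio -0.62, 95% interval -0.66 to -0.58; adjusted p = 2.05e-175, exact binomial test). Mir106b, its upstream neighbour with the same seed, was 2.22-fold higher in animal 1 (1.15, 1.05 to 1.26; adjusted p = 4.98e-114, exact binomial test). Mir25 was 1.45-fold higher in animal 1 (0.54, 0.27 to 0.82; adjusted p = 0.000186, exact binomial test). The cluster sums hid this. The log2 ratio was -0.35 (-0.38 to -0.32) for mir-17-92 and -0.30 (-0.34 to -0.26) for mir-106b-25. Leaving out Mir92-1 and Mir19b-1 moved the first to -0.59, and leaving out Mir106b moved the second to -0.59.

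**Figure D2:**
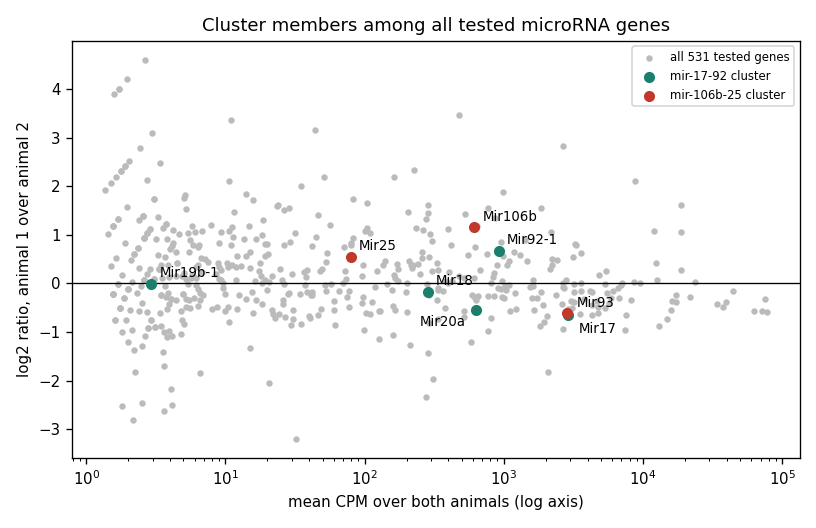
Log2 ratio of animal 1 over animal 2 against mean CPM (log axis) for all 531 tested genes in grey, with mir-17-92 members in green and mir-106b-25 members in red. Members of each cluster lie on both sides of 0, within the spread of the other genes, and Mir17 and Mir93 fall almost on the same point.

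The make-up of each cluster can be read without any scaling between libraries. Mir17 made up 54.8% of the reads of mir-17-92 in animal 1 (exact 95% interval 54.0 to 55.5) and 67.1% in animal 2 (66.3 to 67.9). Mir92-1 made up 26.4% (25.7 to 27.0) and 13.0% (12.4 to 13.6). Mir20a took 12.4% and 14.2%, and Mir18 took 6.35% and 5.62%. The part of counted reads taken by Mir92-1 in animal 1 was thus larger and that of Mir17 smaller. The intervals do not overlap, but they cover counting error only and not the spread between animals. Reads that fit several positions are not counted in these parts, so they need not hold for miR-92a-3p.

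In mir-106b-25 the shift was larger. Mir93 made up 71.2% of its reads in animal 1 (exact 95% interval 70.5 to 72.0) and 88.9% in animal 2 (88.3 to 89.6). Mir106b made up 25.8% (25.1 to 26.6) and 9.44% (8.86 to 10.0), and Mir25 2.92% (2.64 to 3.22) and 1.63% (1.38 to 1.90). Mir93 therefore had 2.76 times the reads of Mir106b in animal 1 and 9.42 times in animal 2.

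**Figure D3:**
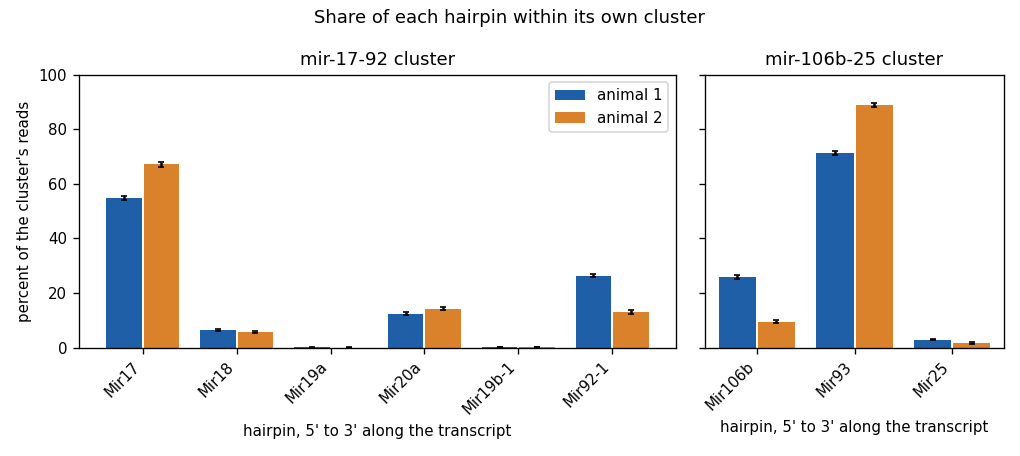
Percent of the reads of a cluster that came from each hairpin, in animal 1 (blue) and animal 2 (orange), with exact 95% intervals for counting error. Mir17 and Mir93 take larger parts in animal 2, and Mir92-1 and Mir106b take larger parts in animal 1.

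The ratio of reads between a pair of hairpins differed between the animals for some pairs on 1 transcript, and hardly at all for some pairs on different chromosomes. The reads of Mir17 over those of Mir93 were 1.01 in animal 1 and 1.03 in animal 2, and Mir17 over Mir20a was 4.41 and 4.72. Mir92-1 over Mir25, on chromosomes 14 and 5, was 11.9 and 10.9. By contrast Mir17 over Mir92-1, on the same transcript, was 2.08 and 5.17. Ratios with Mir92-1 rest on its uncertain count.

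Over the 21 pairs of the 7 hairpins at 10 CPM or more, the gap between the log2 ratios of a pair split the 7 pairs that share a seed into 4 and 3. The pairs among Mir17, Mir20a and Mir93 and the pair of Mir92-1 and Mir25, whose Mir92-1 count is uncertain, gave the 4 smallest gaps of all, 0.023 to 0.13. The pairs of Mir106b with Mir17, Mir20a and Mir93 gave the 3 largest, 1.69 to 1.79. The 14 pairs with no shared seed lay between, from 0.37 to 1.32. The median was 0.84 for the 9 pairs from the same cluster and 0.90 for the 12 from different clusters. Pairs share genes, so these are descriptions without a test, chosen after the values were seen. The seed is that of the strand shown above, while reads of both strands are counted.

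The same was computed over 237 other genes with at least 100 reads in both libraries. All pairs had a median gap of 0.61, and the 309 pairs within 10 kb on the same strand had 0.65. The 112 pairs that share the seed of a listed mature strand but lie farther apart or on another strand had 0.39. The median of neighbours thus lay near that of all pairs, and the median of pairs with a shared seed lay below it; neither difference was tested. Some of the latter are near-identical copies.

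Relatives outside the clusters could be set beside these values. Mir92b was 1.74-fold higher in animal 1 (log2 ratio 0.80, 95% interval 0.75 to 0.84; adjusted p = 1.08e-307, exact binomial test), as Mir92-1 and Mir25 were. Mir32 (-0.23, -0.59 to 0.14), Mir363 (0.38, -0.34 to 1.18) and Mir92-2 (0.020, -0.50 to 0.57) had the same seed and did not pass. Mir106a (-0.79, -1.54 to -0.049; adjusted p = 0.0554, exact binomial test) and Mir20b (-0.47, -1.43 to 0.52) did not pass either.

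**Figure D4:**
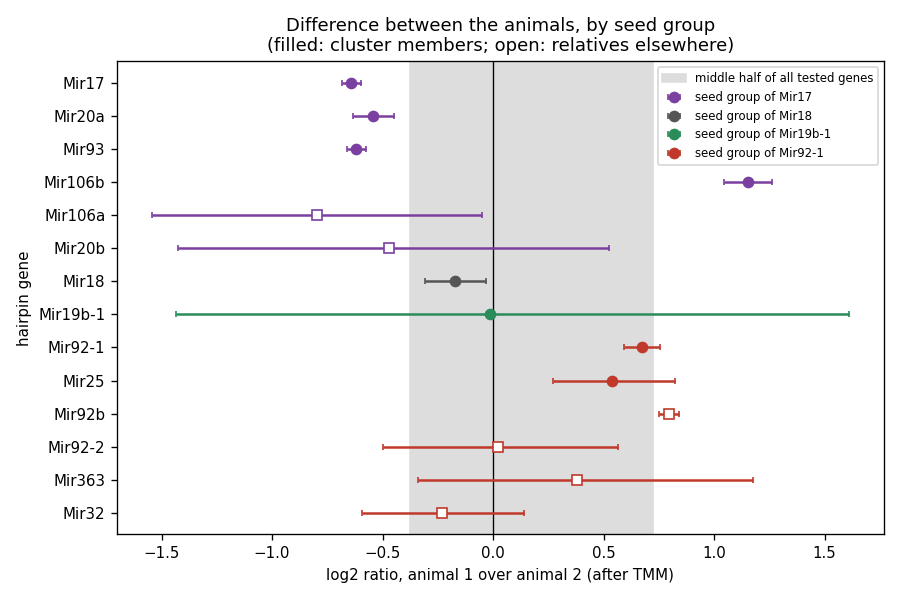
Log2 ratio of animal 1 over animal 2 after TMM, with exact 95% intervals, for cluster members (filled) and relatives elsewhere (open), coloured by seed group; the grey band spans the quartiles of all tested genes, -0.38 to 0.72. Mir17, Mir20a and Mir93 lie left of the band, Mir106b lies right of it, and Mir92-1, Mir25 and Mir92b lie right of 0.

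Markers of other cell types also differed between the animals. The endothelial list rests on Mir126a alone, since Mir126b is annotated on the opposite strand of the same place and was at 0. Mir126a held 2.89% of counted reads in animal 1 and 0.826% in animal 2, a log2 ratio of 1.60. The red blood cell list was higher in animal 1 in sum, at 78.0 against 46.5 CPM. The difference came from Mir451a (27.9 and 9.60 CPM) and Mir144 (21.3 and 8.07 CPM). Mir486, the only 1 of 3 genes at 10 CPM or more in both, had 28.9 and 28.8 CPM and did not pass. Smooth muscle and pericyte genes, 2 of 2 at that level, were higher in animal 2, at 3146 and 4524 CPM. The leukocyte and microglial list, with 5 of 5 genes at that level, was also higher there in sum, at 1593 and 1941 CPM. Within it Mir155 (53.3 and 51.9 CPM) and Mir223 (23.9 and 28.0 CPM) did not pass. The oligodendrocyte list, with 2 of 3 genes at that level, held 1187 and 1640 CPM. Its Mir219a-1 went the other way, at 20.2 and 1.54 CPM, and passed. The pluripotent list held 6.83 and 8.45 CPM, with none of 9 genes at 10 CPM in both and Mir302c, Mir290a and Mir294 at 0. The part of these cells in the cluster values was not tested.

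Among genes outside the clusters, the nearest to a member were found by the distance between log2 levels over both libraries. Mir320 (2584 and 3225 CPM) and Mir376a (2749 and 3398 CPM) were nearest to Mir17, at distances of 0.085 and 0.16, and also to Mir93. Mir15b (1280 and 619 CPM) and Mir1839 (1250 and 736 CPM) were nearest to Mir92-1, at 0.12 and 0.20. With 2 libraries this likeness describes level and direction only.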

How the data were processed

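The deposited tables, 1 per library, hold read counts per microRNA gene in 3 columns (unstranded, own strand, opposite strand); per the notes beside them, the build was mm10 and the annotation GENCODE M21. Neither aligner nor counter is stated (not given in the sources used here). Own-strand counts were used, and the 4 summary rows entered neither library sizes nor tests. Reads counted to genes were 33.5% and 30.4% of 11350270 and 8551277 reads in animals 1 and 2. All 2202 gene IDs were matched to M21 symbols.

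CPM, percentages, exact 95% intervals and the limit of 3 counts were computed in Python 3.11.15 with scipy 1.17.1. TMM factors (1.07 and 0.932) and the common biological coefficient of variation (38.0%) came from edgeR 4.0.16. A quasi-likelihood contrast cannot be fitted to 1 group, so the exact conditional binomial test was used, with Benjamini-Hochberg adjustment over 531 genes; log2 ratios have 0.5 added to each count. The test was tried on simulated counts with counting noise alone, so the trial says nothing of spread between animals. Folds came from RNAfold 2.7.2. DESeq2 1.42.0 gave size factors for an alternative. Named genes are the 9 members, the 6 paralogs on the X chromosome, Mir32, Mir92b and Mir367, the marker lists, and the 2 genes nearest to each of the 3 highest members. The members and lists were chosen with earlier results of these data known. The labels state separate biological replicates but little else, so an SD of 2 may include technical spread.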

Additional observations from a re-analysis of the deposited data

Results flagged for a closer look

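Reads mapped to several positions are listed separately from the hairpins and enter only the totals of all reads. They made up 42.7% of all reads in animal 1 and 40.4% in animal 2, with no control samples to set beside them. How many of them carry miR-92a-3p or miR-19b-3p was not measured. On the strand opposite the 9 hairpins no read was counted in either animal.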

How the results depend on the processing

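With 2 animals, a mean without either of them always lies within its SD, and unstranded counts cannot change ratios within a cluster or between the clusters, so these say nothing of stability. Of the 79 other recomputed values, 52 stayed within the spread or on the same side of the threshold, 25 moved and 2 reversed. The reversed ones are log2 ratios with library totals only, 0.032 for Mir18 (adjusted p = 0.757, exact binomial test) and 0.19 for Mir19b-1, which did not pass in either case. Library totals shift every log2 ratio by 0.20 against TMM. The cluster ratios then became -0.15 (mir-17-92) and -0.10 (mir-106b-25), and with DESeq2 size factors -0.40 and -0.35. Without Mir92-1 and Mir19b-1 the mir-17-92 share was 0.383% and its ratio -0.59; without Mir106b, chosen after seeing the data, the other ratio was -0.59. With unstranded counts, whose total is smaller, the shares were 0.511% (mir-17-92), 0.381% (mir-106b-25) and 0.0305% (the seed group of Mir18). Over all reads of a library they were 0.151% and 0.113% for the clusters, and 0.223%, 0.00906%, 0.000111% and 0.0324% for the seed groups of Mir17, Mir18, Mir19b-1 and Mir92-1. No paired analysis was possible because there is 1 group.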

Other observations

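Hairpin GC content and the log2 ratio of animal 1 over animal 2 were weakly related across genes (Pearson's r = 0.21, Spearman's rho = 0.24 over 453 of 531 tested genes with a RefSeq hairpin). Genes share the libraries and their depth, so this is a description. Among the members the hairpins of mir-106b-25 had 55.7 to 63.1% GC and those of mir-17-92 43.7 to 47.5%, so clusters with unlike GC both held members higher in either animal. Within mir-17-92, Mir92-1 had the highest GC and was the only member that passed as higher in animal 1. Within mir-106b-25, Mir93 had the lowest hairpin GC and was higher in animal 2, while Mir106b (57.3%) and Mir25 (63.1%) were higher in animal 1. The mature strands shown above gave another order in this cluster. There miR-93-5p had the highest GC, 52.2%, against 50% for miR-25-3p and 42.9% for miR-106b-5p. In mir-17-92, miR-92a-3p had the highest, 57.1%. The part of GC content in these differences was not tested.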
